A study of Mus musculus with 18 samples.

Results

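The mRNAs of 9 protease inhibitor genes of the serpin family (Serpina3f, Serpina3g, Serpina3i, Serpina3n, Serpinb1a, Serpinb2, Serpinb9, Serpinb11 and Serpine2) were followed in cultured mouse kidney tubule cells exposed to TWEAK with or without a NIK inhibitor. They were taken by symbol from 66 serpin genes among the 36528 genes in the count files, and they were selected on their CPM levels and fold changes in these same comparisons. Their levels and fold changes are therefore given as a description with no p-value, and p-values are given only for genes outside the 9. Of the 9 genes, 6 passed a filter of over 10 reads in 4 or more samples and entered the fit of 15521 genes, and the other 3 (Serpina3f, Serpina3i and Serpina3n) did not.

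Serpins are inhibitors that work as a decoy. The protease cleaves an exposed loop of the serpin, the serpin snaps into a new fold, and the protease is trapped in a covalent complex. Clade A members are mostly secreted, clade B members such as Serpinb9 are mostly found inside cells, and clade E members such as Serpine2 act on thrombin and on plasminogen activators outside the cell. In epithelia they limit damage by leukocyte proteases and by proteases leaking from lysosomes, and they set the pace of pericellular proteolysis.

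RNA-seq was performed on primary renal proximal tubule epithelial cells (RPTEC) bought from a commercial supplier and isolated from C57BL/6 mice, the same strain in every group. Cells were given vehicle (DMSO), TWEAK at 100 ng/mL, or TWEAK at 100 ng/mL together with NIK SMI1 at 3 μM, and were collected after 6 h or 24 h, with 3 samples in each of the 6 groups and 18 in all. TWEAK is a cytokine of the TNF family that signals through the receptor Fn14, and NIK SMI1 is a small molecule inhibitor of NIK, the kinase that starts non-canonical NF-κB signaling. No group received NIK SMI1 alone, so the compound was compared only on top of TWEAK, and the comparisons with and without NIK SMI1 share the TWEAK samples.

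Gene counts summed to 18040966 to 51956444 per sample (median 35374254), so that 3 reads stood for 0.0577 to 0.166 CPM, the count scaled to a common library total. The epithelial markers Krt8, Krt18, Krt19, Epcam and Cdh1 were abundant, at 641 CPM or more in every sample. Others of the same list were lower: Cdh16 at 18.7 to 31.2, Pax8 at 28.3 to 50.5 and Pax2 at 28.1 to 52.0 CPM. Of the collecting duct markers, Krt7 was at 2573 to 4433 CPM and Gata3 at 0.203 to 2.19 CPM. Aqp2, Aqp3, Scnn1b and Atp6v1b1 were at 0.254 CPM or less. Of 10 proximal tubule markers, Slc22a8 and Miox had no read, Slc34a1 and Slc22a6 had 3 reads and 1 read over all samples, while Slc5a2 (5.83 to 8.52 CPM), Cubn (1.93 to 4.64 CPM) and Ggt1 (0.325 to 2.11 CPM) were found at low levels in every sample, and the summed level was 10.7 to 14.6 CPM. Summed markers of pancreatic islet cells, which were not part of the labelled culture, were at 14.8 to 31.9 CPM in every 6 h sample, every vehicle sample at 24 h and TWEAK sample 1 at 24 h, but at 0.321 and 4.66 CPM in TWEAK samples 2 and 3 at 24 h and at 0.113 to 0.232 CPM with NIK SMI1 at 24 h. Their part in the 24 h results was not tested. The 24 h values of TWEAK sample 1 are therefore given one by one for the 6 genes that passed the filter, but not for the proteases and receptors. In RNA from whole cultures, fewer cells with a transcript and less transcript per cell cannot be told apart. Nothing states that the 3 samples of a group came from separate animals, so their spread is that between cultured samples.

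The promoters of 4 of the genes are shown first. They set the member with the steepest rise beside relatives among the 9 that had almost no reads. They also set it beside the member with the steepest fall. RefSeq promoter windows (build GRCm38.p6, from 250 bases before the transcription start to 50 bases after it) were found for 8 of the 9 genes. Capitals mark matches to the NF-κB (κB) consensus and to a STAT palindrome (TTCNNNGAA) in the Serpina3 promoters, and matches to the AP-1 motif (TGANTCA) in Serpinb11, with both strands searched. The windows are chr12:104235897-104236196 (plus strand) for Serpina3g, chr12:104262872-104263171 (plus strand) for Serpina3i, chr12:104406458-104406757 (plus strand) for Serpina3n and chr1:107362064-107362363 (plus strand) for Serpinb11.
Serpina3g: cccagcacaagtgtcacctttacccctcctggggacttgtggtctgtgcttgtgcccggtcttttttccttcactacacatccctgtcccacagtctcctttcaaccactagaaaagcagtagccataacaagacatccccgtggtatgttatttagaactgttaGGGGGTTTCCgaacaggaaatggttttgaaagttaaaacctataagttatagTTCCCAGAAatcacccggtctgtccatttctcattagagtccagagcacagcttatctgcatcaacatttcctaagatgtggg
Serpina3i: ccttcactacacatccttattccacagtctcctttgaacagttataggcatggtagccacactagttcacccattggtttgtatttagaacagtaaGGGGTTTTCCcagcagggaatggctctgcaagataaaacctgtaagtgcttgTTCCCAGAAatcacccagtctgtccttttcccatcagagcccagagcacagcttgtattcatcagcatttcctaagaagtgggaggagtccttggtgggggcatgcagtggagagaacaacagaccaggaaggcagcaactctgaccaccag
Serpina3n: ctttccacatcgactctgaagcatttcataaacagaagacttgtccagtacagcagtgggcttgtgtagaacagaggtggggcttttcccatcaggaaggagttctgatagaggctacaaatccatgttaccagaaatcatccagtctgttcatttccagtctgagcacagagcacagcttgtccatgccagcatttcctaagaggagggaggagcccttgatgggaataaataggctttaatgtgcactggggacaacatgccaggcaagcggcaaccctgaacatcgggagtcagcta
Serpinb11: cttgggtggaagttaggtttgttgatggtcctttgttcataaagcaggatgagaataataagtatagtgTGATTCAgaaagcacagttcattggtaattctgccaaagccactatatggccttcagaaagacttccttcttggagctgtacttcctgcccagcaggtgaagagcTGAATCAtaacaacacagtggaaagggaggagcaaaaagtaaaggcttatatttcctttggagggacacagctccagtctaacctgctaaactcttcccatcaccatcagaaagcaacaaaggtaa

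The Serpina3g window held a κB match that began 85 bases before the start (position -85) and a STAT match at -33. The Serpina3i window held the same pair farther upstream, at -154 and -102, with the same 52 bases from the one to the other. Serpina3f held a STAT match alone, at -121, and Serpina3n held neither motif. Of 32851 mouse promoter windows of the same length, 8.46% held a κB match, 8.3% a STAT match and 7.81% an AP-1 match. Serpinb11 had AP-1 matches at -181 and -76, and Serpinb2 had an AP-1 match at -94 and a STAT match at 11 in the first of its windows. No match to the 3 motifs was found for Serpinb9 or Serpine2. These are letter matches in a short window, and no factor binding was measured.

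**Figure D1:**
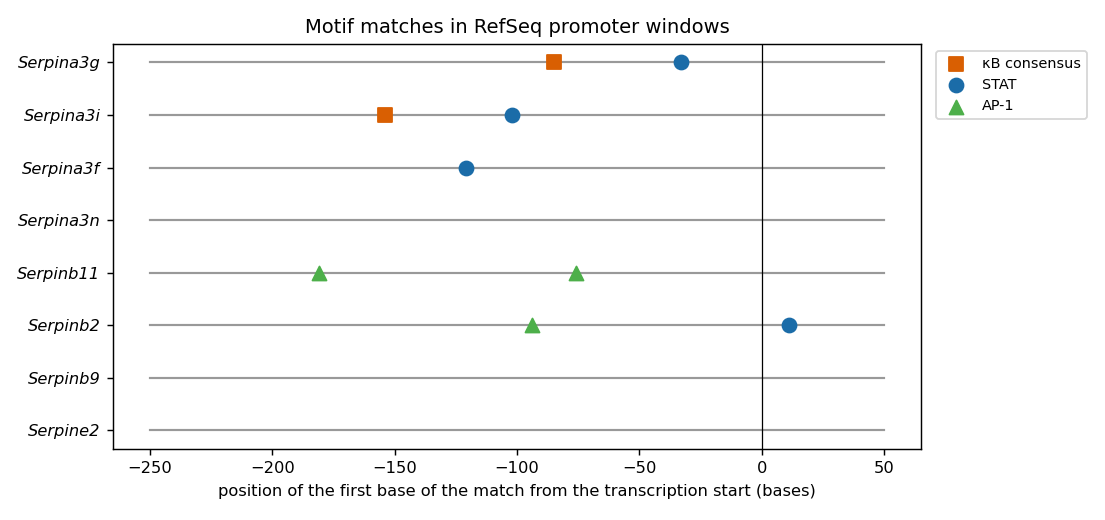
Motif matches in the promoter windows of 8 serpin genes (rows), drawn by the distance in bases of the first base of the match from the transcription start (x axis, first listed window of each gene). Squares mark the κB consensus, circles the STAT palindrome and triangles AP-1. The pair of κB and STAT matches lies 52 bases apart in both Serpina3g and Serpina3i.

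Serpina3g encodes an intracellular inhibitor of lysosomal cathepsins that is known as a target of NF-κB. Its mRNA was scarce, and it was seen almost only after TWEAK. At 6 h, vehicle samples had 0, 2 and 2 reads and TWEAK samples had 18, 20 and 17 reads. This corresponds to 0.0307 ± 0.0276 CPM with vehicle and 0.455 ± 0.0599 CPM with TWEAK (SD, n = 3 each). With NIK SMI1 added, the 6 h samples had 9, 0 and 3 reads, or 0.139 ± 0.128 CPM. All 3 TWEAK samples lay above all vehicle and all NIK SMI1 samples, while the latter 2 groups overlapped. The fitted log2 fold change at 6 h was 3.64 ± 0.68 (SE) for TWEAK against vehicle and -1.56 ± 0.56 for NIK SMI1 on top of TWEAK. The second value rests on few reads and was -2.63 without NIK SMI1 sample 1, the one with 9 reads.

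At 24 h, no Serpina3g read was found in the vehicle samples, 0 among 82963519 reads, which allows a level of up to 0.0362 CPM over the group. TWEAK samples had 8, 28 and 34 reads, or 0.352, 0.599 and 0.813 CPM, and samples with NIK SMI1 had 11, 9 and 3 reads, or 0.248, 0.261 and 0.0975 CPM. Against the limit that 3 reads over the vehicle group would set, the mean TWEAK level was at least 16.3-fold higher and the mean level with NIK SMI1 at least 5.59-fold higher. The 3 groups did not overlap, and the samples with NIK SMI1 lay between vehicle and TWEAK. The log2 fold change for NIK SMI1 on top of TWEAK was -1.55 ± 0.46 (SE). It was -1.26 without TWEAK sample 3 and -1.27 without NIK SMI1 sample 3. The gene passed the filter on reads only through samples given TWEAK, since 6 samples had more than 10 reads and all of them had received it. TWEAK sample 1, the one with islet transcripts, was the lowest of its group at 0.352 CPM and still above every vehicle sample. The limit set by 3 reads covers counting error only.

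The other Serpina3 genes among the 9 gave almost no reads. Serpina3f had 3 reads in total, all in TWEAK sample 2 at 24 h. Serpina3i had 6 reads in 4 samples, at most 2 in any one of them. Serpina3n, which encodes a secreted inhibitor of leukocyte proteases and is a common marker of tissue inflammation, had 9 reads in 7 samples, again at most 2 in any one, spread over 5 of the 6 groups including vehicle at 24 h. A response of these 3 genes was not detectable at this depth. Because only uniquely aligned reads were counted, reads from stretches that the cluster shares are lost. In GENCODE M21 transcripts, 15.5% of the 50-base windows of Serpina3g and 15.9% of those of Serpina3i also occur in another gene. The shares were 10.6% for Serpina3f and 6.9% for Serpina3n. The largest share of the Serpina3g windows, 195 of 340 shared ones, is common with Serpina3h, which had at most 11 reads in any sample. Serpina3h, outside the 9 and below the filter, had 72 reads in 14 samples. Its means at 6 h were 0.0128, 0.0869 and 0.139 CPM for vehicle, TWEAK and TWEAK with NIK SMI1. At 24 h they were 0.0754, 0.233 and 0.173 CPM. TWEAK samples of Serpina3h overlapped vehicle samples at each time, and a response was not tested. The levels of these genes are uncertain to that extent.

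**Figure D2:**
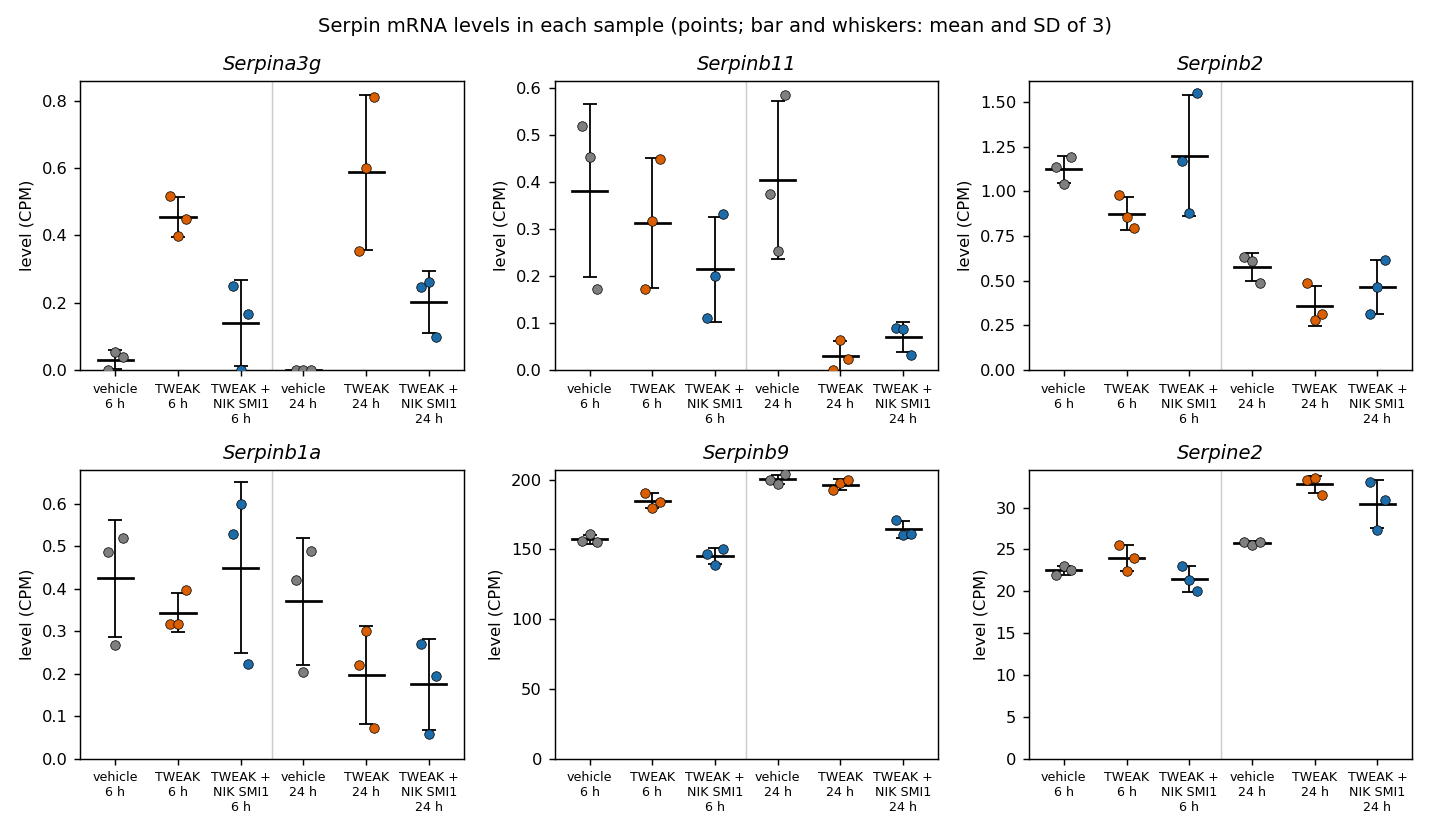
Level in CPM (y axis, from 0) of the 6 serpin genes that passed the filter, in each of the 18 samples by group (x axis). Points are samples, horizontal bars group means and whiskers the SD of 3 samples. Serpina3g separates the TWEAK samples from vehicle at both times, Serpinb11 is low in every TWEAK and NIK SMI1 sample at 24 h, and Serpinb9 is lower with NIK SMI1 than with TWEAK at both times.

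Serpinb9 encodes the intracellular inhibitor of granzyme B, the protease that cytotoxic lymphocytes deliver into target cells. It was the most abundant of the 9 genes, with 2706 to 9226 reads per sample. At 6 h it was at 156, 161 and 155 CPM with vehicle, at 191, 180 and 184 CPM with TWEAK, and at 146, 139 and 150 CPM with TWEAK and NIK SMI1. No 2 of these groups overlapped, and the level with NIK SMI1 was below that with vehicle. The log2 fold changes were small with a narrow error, 0.24 ± 0.03 (SE) for TWEAK and -0.35 ± 0.03 for NIK SMI1 on top of it. At 24 h, vehicle samples were at 199.7, 197 and 204 CPM and TWEAK samples at 192, 198 and 199.5 CPM, and these groups overlapped (log2 fold change -0.03 ± 0.03). Samples with NIK SMI1 were at 171, 161 and 161 CPM, below every sample of both other groups, and the log2 fold change was -0.26 ± 0.03 against TWEAK and -0.29 ± 0.03 against vehicle. Vehicle samples themselves were higher at 24 h than at 6 h, by 0.28 ± 0.03 on the log2 scale. Serpinb9 was thus lower with the compound than with vehicle at both times, although at 6 h this difference was small (-0.11 ± 0.03).

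Serpinb11 encodes a clade B serpin of epithelia. It moved the other way and only late. At 6 h its 9 samples ranged from 0.111 to 0.518 CPM (4 to 17 reads) and the 3 groups overlapped. At 24 h vehicle samples had 16, 5 and 12 reads (0.374, 0.254 and 0.586 CPM), TWEAK samples had 0, 3 and 1 reads (0, 0.0642 and 0.0239 CPM), and samples with NIK SMI1 had 4, 3 and 1 reads (0.0902, 0.087 and 0.0325 CPM). Every vehicle sample lay above every TWEAK and every NIK SMI1 sample, whereas TWEAK and NIK SMI1 samples overlapped. Serpinb11 passed the filter through 6 samples with more than 10 reads. All of these were vehicle samples or 6 h TWEAK samples, and none was a treated sample at 24 h. The log2 fold change was -3.36 ± 0.72 (SE) for TWEAK against vehicle and -2.40 ± 0.63 for TWEAK with NIK SMI1 against vehicle. For NIK SMI1 against TWEAK it was 0.95 ± 0.97, an error too wide to show a reversal or its absence, and it was 1.99 without TWEAK sample 2. Without TWEAK sample 2, which held 3 of the 4 reads of that group, the TWEAK value was -4.39. TWEAK sample 1, with islet transcripts, had no Serpinb11 read. None of the 50-base windows of Serpinb11 occurs in another gene.

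Serpine2 encodes protease nexin, a secreted inhibitor of thrombin, urokinase and plasmin. At 6 h its groups overlapped, from 20.01 to 25.5 CPM over all 9 samples. At 24 h vehicle samples were at 25.9, 25.5 and 25.8 CPM, TWEAK samples at 33.3, 33.5 and 31.5 CPM and samples with NIK SMI1 at 33.0, 27.4 and 30.9 CPM. Both treated groups lay above vehicle and overlapped each other. Vehicle samples at 24 h lay above those at 6 h on CPM (21.9 to 23.0 CPM at 6 h). The fitted log2 difference between these times, after TMM normalization, was only 0.13. The log2 fold change at 24 h was 0.34 ± 0.06 (SE) for TWEAK, 0.24 ± 0.06 for TWEAK with NIK SMI1, each against vehicle, and -0.11 ± 0.06 for NIK SMI1 on top of TWEAK. The value with NIK SMI1 was 0.18 without its sample 1. TWEAK sample 1 at 24 h, at 33.3 CPM, stood within the range of its group.

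Serpinb2 encodes the clade B inhibitor of urokinase and is an early response gene in many cells. With vehicle, its level was lower at 24 h than at 6 h. Vehicle samples had 1.13, 1.04 and 1.19 CPM at 6 h and 0.631, 0.609 and 0.488 CPM at 24 h, a log2 difference of -1.002 ± 0.28 (SE). TWEAK samples lay below all vehicle samples at 6 h, at 0.977, 0.855 and 0.792 CPM, and at 24 h, at 0.485, 0.278 and 0.311 CPM, although the margin at 24 h was only from 0.488 to 0.485 CPM. The log2 fold changes were -0.36 ± 0.24 at 6 h and -0.79 ± 0.34 at 24 h (SE), with errors that are wide for changes of this size. The 24 h value was -0.99 without TWEAK sample 1 and -0.27 from TWEAK sample 1 alone, the one with islet transcripts, a value from 1 sample that has no error of its own. Samples with NIK SMI1 overlapped both other groups at each time, at 0.878 to 1.55 CPM and 0.316 to 0.618 CPM. Of its 50-base windows, 10.4% are shared with Serpinb10.

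Serpinb1a encodes an inhibitor of neutrophil elastase and cathepsin G. It had 2 to 27 reads per sample, and no 2 groups compared within a time point were separate. The means were 0.424, 0.343 and 0.450 CPM at 6 h and 0.371, 0.197 and 0.175 CPM at 24 h for vehicle, TWEAK and TWEAK with NIK SMI1. TWEAK sample 1 at 24 h, with islet transcripts, was at 0.220 CPM, within the range of its group. The log2 fold change for TWEAK at 24 h was -0.94 ± 0.52 (SE), and leaving out 1 sample at a time moved it from -1.57 to -0.49. A change of Serpinb1a was not detectable at this depth.

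Scaled by exonic length (RPKM as deposited), the 6 genes fell into a well covered pair, Serpinb9 and Serpine2, and 4 scarce mRNAs. With vehicle at 6 h, Serpinb9 stood at 37.6 RPKM, the fifth of the 17 serpins that passed the filter, and Serpine2 at 9.53 RPKM, the eighth. Serpinb2 followed at 0.528 RPKM, Serpinb11 at 0.217, Serpinb1a at 0.197 and Serpina3g at 0.0143 RPKM, the last of the 17. The ranges of Serpinb11 and Serpinb1a overlapped, and those of the other neighbours among the 6 were apart. With TWEAK at 24 h Serpina3g stood at rank 11, at 0.275 RPKM, and Serpinb11 stood at rank 17, at 0.0165 RPKM, with ranges that overlapped those of the next ranks. In that group Serpinb9 was at rank 5, at 46.7 RPKM, with a range that overlapped that of Serpinb6b at rank 4, and Serpine2 was at rank 8, at 13.8 RPKM. At 6 h with TWEAK, with or without NIK SMI1, Serpinb9 was at rank 6. Serpinb6a and Serpinh1 (the collagen chaperone of the endoplasmic reticulum), the highest of the 17 at 251.2 and 139 RPKM with vehicle at 6 h, are not among the 9.

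**Figure D3:**
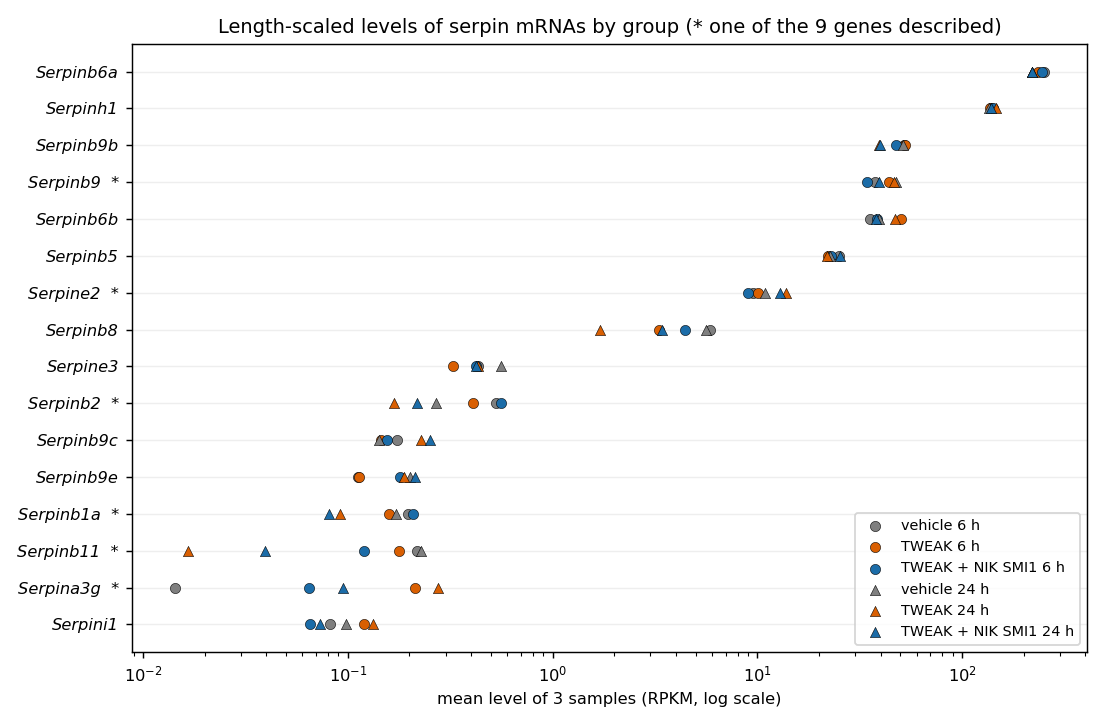
Mean level of 3 samples in RPKM (x axis, log scale) of 16 serpin genes that passed the filter (rows, ordered by their mean over groups), by treatment (color) and time (circles 6 h, triangles 24 h). Stars mark the 6 of the 9 genes described that passed. Serpina3g with vehicle at 24 h is at 0 and cannot be drawn on this axis, and the widest spreads between groups are those of Serpina3g and Serpinb11.

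Counts of calls (adjusted p under 0.05 in the edgeR quasi-likelihood fit) are given for all 17 tested serpins beside the share of all 15521 tested genes, and for the 6 chosen genes they carry no weight. For TWEAK at 6 h, 3 serpins were higher, Serpina3g and Serpinb9 among them, and 3 were lower, against 11.7% and 12.0% of all genes. For TWEAK at 24 h, 5 were higher, Serpina3g and Serpine2 among them, and 3 were lower, Serpinb11 among them, against 18.3% and 20.7%. For NIK SMI1 on top of TWEAK at 6 h, 1 was higher and 4 were lower, with Serpinb9 among the latter, against 5.34% and 5.7%. At 24 h, 2 were higher and 4 were lower, with Serpina3g and Serpinb9 among the latter, against 10.2% and 8.29%. With so few serpins tested, and the 6 chosen genes among them, these counts were not tested against the background shares.

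The 2 treatments together were also compared with vehicle. TWEAK with NIK SMI1 against vehicle at 6 h gave 0 serpins higher and 3 lower (Serpinb9 of the 6), against 7.23% and 6.7% of all genes. At 24 h, 3 were higher (Serpina3g and Serpine2 of the 6) and 4 were lower (Serpinb11 and Serpinb9 of the 6), against 8.07% and 9.83%. Vehicle at 24 h against vehicle at 6 h gave 1 higher, Serpinb9, and 5 lower, Serpinb2 among them, against 15.5% and 14.4%. The signed TWEAK effect (log2, 24 h minus 6 h) was higher for 1 serpin and lower for 5 (Serpinb11 and Serpinb9 of the 6), which includes falls that were deeper at 24 h, against 3.24% and 5.67%. The NIK SMI1 effect differed between times in the upward direction for 1 and in the downward direction for 1, neither of them one of the 6, against 3.11% and 1.62%.

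**Figure D4:**
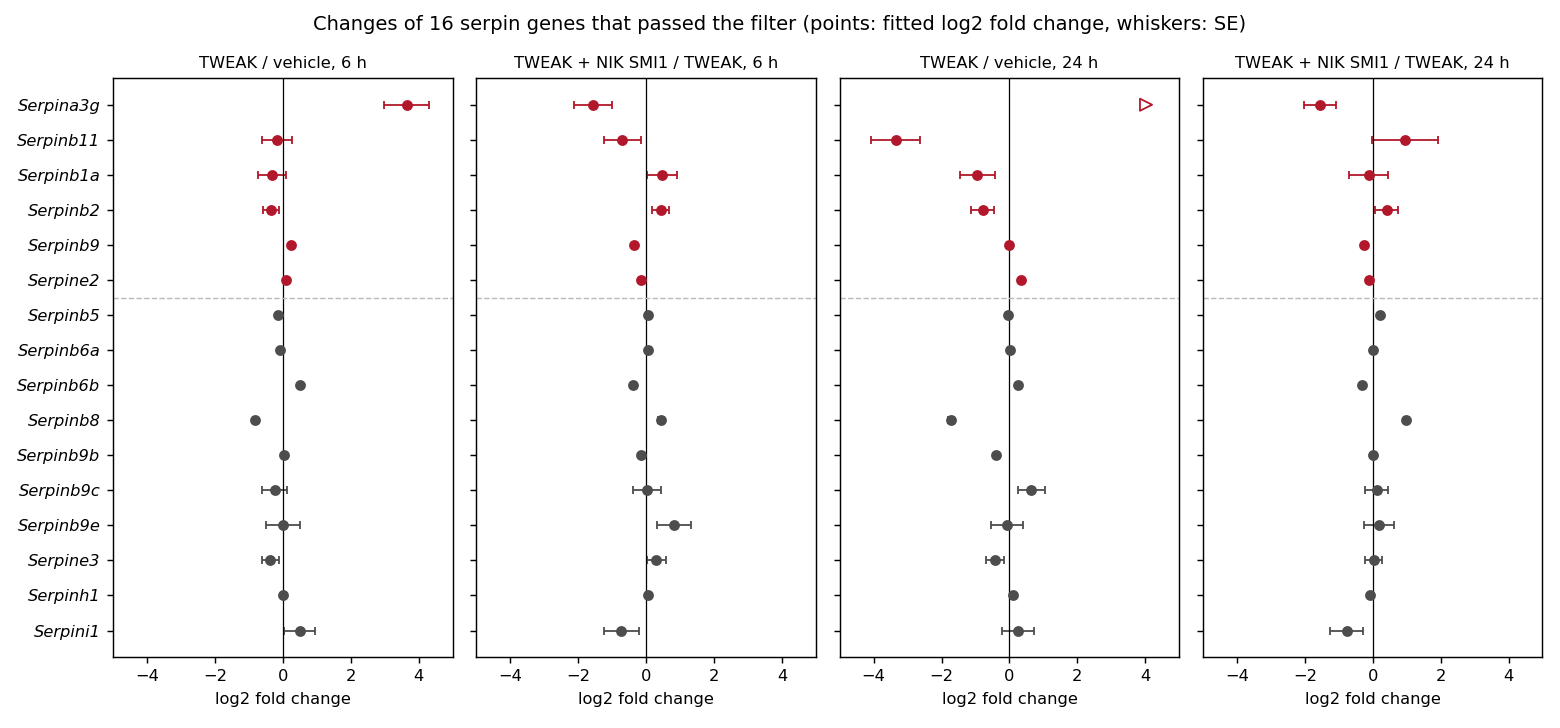
Fitted log2 fold change (x axis) of 16 serpin genes that passed the filter, in 4 comparisons (panels). Points are estimates and whiskers the SE, with the 6 chosen genes above the dashed line. The open triangle for Serpina3g at 24 h is the lower bound against the limit set by 3 reads in the vehicle group. Serpinb8 falls with TWEAK at both times and is partly raised again by NIK SMI1.

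Among the 11 other tested serpins, 1 was higher and 3 were lower with TWEAK at 6 h, against 11.7% and 12.0% of all tested genes. At 24 h, 3 were higher and 2 lower, against 18.3% and 20.7%. Serpinb8, an intracellular serpin known to inhibit furin, was the one with a change of over 2-fold. It was at 19.9, 20.7 and 21.4 CPM with vehicle, 11.8, 12.1 and 10.9 CPM with TWEAK, and 17, 15.2 and 14.7 CPM with NIK SMI1 at 6 h. At 24 h it was at 20.7, 20.3 and 18.3 CPM, 6.30, 6.21 and 5.59 CPM, and 11.7, 11.4 and 13.0 CPM. The 3 groups were apart at each time, with NIK SMI1 between TWEAK and vehicle. Serpinb8 fell with TWEAK by 0.82 ± 0.07 on the log2 scale at 6 h (SE, edgeR adjusted p = 4e-10) and by 1.73 ± 0.08 at 24 h (edgeR adjusted p = 8.9e-16). It rose with NIK SMI1 on top of TWEAK by 0.44 ± 0.08 (edgeR adjusted p = 0.00016) and 0.99 ± 0.08 (edgeR adjusted p = 6.3e-10).

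Serpinb6b, named here after its values were seen, is a clade B serpin whose mean moved in the direction of Serpinb9 at 6 h. It rose with TWEAK by 0.52 ± 0.04 at 6 h (SE, edgeR adjusted p = 6e-11) and by 0.26 ± 0.04 at 24 h (edgeR adjusted p = 7.8e-06), and fell with NIK SMI1 by 0.40 ± 0.04 and 0.32 ± 0.04 (edgeR adjusted p = 5.8e-08 and 1.1e-06). Of the 46 other serpins that did not pass the filter, none had more than 20 reads in any sample. They include the antitrypsin genes of the Serpina1 group, which are liver genes.

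The proteases and receptors that serpins act on were examined with a list of 42 genes, of which 26 were tested. With TWEAK, 8 were higher and 9 lower at 6 h, and 7 were higher and 15 lower at 24 h (higher and lower shares of all tested genes were 11.7% and 12.0%, then 18.3% and 20.7%), with median log2 fold changes of -0.0063 and -0.10 (-0.0034 and -0.0055 over all tested genes). With NIK SMI1 on top of TWEAK, 7 were higher and 5 lower at 6 h, and 10 were higher and 3 lower at 24 h (all tested genes 5.34% and 5.7%, then 10.2% and 8.29%). The genes with the largest changes include the thrombin receptor F2r and the receptor F2rl1, which trypsin-like proteases cleave. F2r fell with TWEAK by 1.18 ± 0.03 at 24 h (SE, edgeR adjusted p = 3.4e-21) and rose with NIK SMI1 by 0.57 ± 0.03 (edgeR adjusted p = 1.3e-13). F2rl1 fell by 1.14 ± 0.04 (edgeR adjusted p = 2.2e-19) and rose by 0.86 ± 0.04 (edgeR adjusted p = 4.8e-16). The membrane protease Tmprss2 fell by 1.27 ± 0.09 at 24 h (edgeR adjusted p = 1.4e-11) and rose with NIK SMI1 by 0.74 ± 0.09 (edgeR adjusted p = 1e-06). Proc, the gene of the anticoagulant protein C, fell by 1.44 ± 0.23 at 24 h (edgeR adjusted p = 1.5e-05) and was at 0.22 ± 0.25 with NIK SMI1. The inflammatory caspase gene Casp4 rose by 1.37 ± 0.34 at 6 h and 1.85 ± 0.48 at 24 h (edgeR adjusted p = 0.0032 and 0.0031) and fell with NIK SMI1 by 1.91 ± 0.41 at 6 h (edgeR adjusted p = 0.0019), at levels under 1 CPM.

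The plasminogen activators, targets of Serpine2 and Serpinb2, are named after their values were seen. Plau (urokinase) rose with TWEAK from 676 ± 12.0 to 926 ± 24.5 CPM at 6 h (SD, n = 3 each), by 0.47 ± 0.03 on the log2 scale (edgeR adjusted p = 6.5e-13). Plat (tissue plasminogen activator) rose from 151 ± 2.52 to 225 ± 10.8 CPM (SD, n = 3 each), by 0.58 ± 0.04 (edgeR adjusted p = 1.1e-12). Both fell with NIK SMI1 at 6 h, by 0.24 ± 0.03 and 0.40 ± 0.04 (edgeR adjusted p = 1.1e-06 and 1.1e-08). At 24 h Plat fell again with NIK SMI1, by 0.40 ± 0.04 (edgeR adjusted p = 6.1e-09), whereas Plau did not: its level was 939 ± 7.77 CPM under TWEAK (SD, n = 3) and 963 ± 5.54 CPM once the compound was added (SD, n = 3), which differ by 0.03 ± 0.03 on the log2 scale (SE). Vldlr, also named after its values were seen, an endocytic receptor that takes up complexes of serpin and protease, rose by 0.98 ± 0.06 at 6 h (edgeR adjusted p = 1.8e-13). Protease inhibitors of other families were covered by a list of 26 genes, of which 8 were tested. With TWEAK, 2 were higher and 3 lower at 6 h and 2 were higher and 4 lower at 24 h, and with NIK SMI1 on top of it 2 were higher and 1 lower at each time, to be read against the same shares of all genes. No change among them reached 2-fold with TWEAK or 1.5-fold with NIK SMI1.

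For each of the 6 genes, the pair of genes with the most similar pattern over the 6 group means was found by Pearson's r on log2(CPM + 1). The search covered 13156 tested genes with a mean of at least 1 CPM and left out all serpins. The group means of a pair come from the same libraries, and the values are a description over 6 points. Because the closest genes were picked from 13156 over so few points, a high r can arise from the search alone. Serpinb1a, for which no change was detectable at this depth, also reached r = 0.994. The r values therefore cannot tell shared regulation from selection, and shared regulation was not tested. Serpina3g was closest to Grk5 (r = 0.996) and to the keratin gene Krt16 (r = 0.996), the latter at 0.345, 2.85 and 0.942 CPM at 6 h and 0.242, 3.35 and 1.16 CPM at 24 h for vehicle, TWEAK and TWEAK with NIK SMI1. Serpinb9 was closest to a gene listed by identifier with no symbol matched here (r = 0.983) and to Mab21l3 (r = 0.976), and Serpinb11 to Tcf20 (r = 0.995) and Tcf24 (r = 0.990). Serpine2 was closest to Fam98a (r = 0.997) and Gatb (r = 0.993), Serpinb2 to Ier3 (r = 0.997) and Hspa1b (r = 0.996), and Serpinb1a to Tep1 (r = 0.994) and Sphk1 (r = 0.991).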

How the data were processed

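RNA-seq libraries of 18 RPTEC samples (6 groups of 3) were analysed from the per-sample tables. Per the labels and the methods, the authors aligned reads with GSNAP through HTSeqGenie to NCBI build 37 and deposited raw counts of uniquely aligned reads in the exons of each gene, and analysed them with DESeq2. The authors also deposited RPKM values, scaled by exonic length and sample total, which were used only to compare levels between genes. The labels and the methods differ on the sequencer and read length.

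Identifiers were matched to symbols in RefSeq (31049 genes) and GENCODE M21 (78 genes), and 5401 of the 36528 had no match. Genes with more than 10 reads in at least 4 samples (15521) were fitted over all 18 samples in edgeR 4.0.16 (R 4.3.3) with TMM normalization and the quasi-likelihood test, adjusted by Benjamini-Hochberg over all tested genes. SEs came from the F statistic. With 3 samples in each group, a single gene cannot reach p below 0.1 in an exact permutation test. CPM is the count over the library total. Replicates differed by more than sampling noise (chi-square per gene 2.19 to 9.95), so none were merged. The scripts were tested on simulated data.

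The 9 genes, the lists and the tests were chosen with earlier results of these data known. Beside the 9 genes, genes past 2-fold with TWEAK or 1.5-fold with NIK SMI1 at an adjusted p under 0.05 were named, at most 10 other serpins and 5 of each list, by largest change, and each other gene named with values was chosen after they were seen, or is a marker or one of the 2 most similar by pattern. Alternatives were DESeq2 1.42.0, its size factors, other filters, each time fitted alone, TMM-scaled levels and leaving out each sample. Protein sequences were not used here, and 1 serpin that passed the filter is counted but not reported here.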

Additional observations from a re-analysis of the deposited data

Results flagged for a closer look

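The effect of TWEAK was compared between the times by the interaction term of the edgeR fit, with values on the log2 scale as the effect at 24 h minus that at 6 h. For the chosen genes the difference is a description with no test. It was -3.187 ± 0.869 (SE) for Serpinb11, whose TWEAK and vehicle samples overlapped at 6 h and were apart at 24 h. The Serpinb11 value was -2.877 without TWEAK sample 3 at 6 h, -2.923 without vehicle sample 3 at 24 h, -2.951 without TWEAK sample 3 at 24 h and -4.22 without TWEAK sample 2 at 24 h. The difference was -0.2699 ± 0.048 for Serpinb9, higher with TWEAK at 6 h and overlapping with vehicle at 24 h.

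Among the other serpins, the fall of Serpinb8 was deeper at 24 h, by -0.9042 ± 0.108 (edgeR adjusted p = 1.29e-06). Serpinb9b, a close relative of Serpinb9, differed by -0.4269 ± 0.0554 (edgeR adjusted p = 4.72e-06), and Serpinb6b by -0.2522 ± 0.0574 (edgeR adjusted p = 0.00432). The effect of NIK SMI1 on top of TWEAK differed between the times by 0.5549 ± 0.112 for Serpinb8 (edgeR adjusted p = 0.00361). Summed islet markers, at 16.1 to 31.9 CPM in all 6 h samples, were at 14.8, 0.321 and 4.66 CPM in TWEAK samples 1, 2 and 3 and at 0.113 to 0.232 CPM with NIK SMI1 at 24 h, and their part in these differences was not tested.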

How the results depend on the processing

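Over 1230 recomputed fold changes of the 6 tested genes, 1216 differed from the value of the main fit by less than its SE. The other 14 moved further, and 0 of those called changed sign. This SE is wide for the genes with few reads. Counts of serpins called stayed within 1.5 times in 405 of 410 cases. Leaving out 1 sample at a time moved the count lower with TWEAK at 6 h from 3 to between 1 and 4 (1 without vehicle sample 1 or TWEAK sample 1), the count lower with NIK SMI1 on top of TWEAK at 6 h from 4 to between 2 and 4 (2 without TWEAK sample 3), and the count higher with TWEAK and NIK SMI1 against vehicle at 6 h from 0 to between 0 and 1. For these counts the cause was not tested beyond the loss of a sample. Serpinb9 against vehicle at 6 h with NIK SMI1, at -0.11 ± 0.03 (SE), ranged from -0.13 to -0.08 over 23 alternatives. Levels on TMM library sizes moved by at most 3.76%. The values of TWEAK at 24 h from its sample 1 alone were added after seeing the data. No paired analysis was possible because the labels give no replicate numbers. Depth limits Serpina3g, Serpinb11, Serpinb2 and Serpinb1a most, with at most 62 reads per sample.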
